A study of Mus musculus with 36 samples.

Results

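Collagen chain genes encode the polypeptides that wind into the triple helices of the collagens. All genes of the deposited table whose symbol is Col, a type number, the letter a and a chain number were taken, which gave 44 of 15289 genes. They comprise 11 fibrillar chains, 6 basement membrane chains (type IV), 6 beaded filament chains (type VI), 1 anchoring fibril chain (type VII), 3 short chain network chains (types VIII and X), 9 fibril-associated chains, 4 transmembrane chains, 2 multiplexins (types XV and XVIII) and 2 others. RNA was sequenced in 33 libraries from mice or cells of the Nrl-GFP strain, in which a promoter of the rod gene Nrl drives green fluorescent protein. The groups were mouse embryonic fibroblasts (MEF) at passage 2 with 3 libraries, cells under treatment with 5 chemicals at day 5 (3 libraries) and day 8 (3 libraries), reprogrammed photoreceptor-like cells called CiPC at day 11 (3 libraries), and isolated rods of postnatal day 2 (P2, 2 libraries), P4 (2), P5 (3), P6 (3), P10 (4), P14 (3) and P28 (4). MEF were grown in IMR90 medium and the treated cells in photoreceptor induction medium, so chemicals and medium cannot be told apart in comparisons with MEF. All groups share the reporter strain, with 80 ng of total RNA for each sample. Per the protocols cells were sorted on the promoter reporter, which is not taken here to hold for every group. Sorting enriches for cells that express the reporter, and nothing in the labels says that libraries of a group came from separate cultures or animals, so p-values measure the spread between these libraries, which may be technical.

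Collagens are secreted as procollagens whose chains are hydroxylated, folded with chaperones, trimmed of their propeptides and crosslinked outside the cell. Fibrillar chains build the cables of skin, bone and cartilage, type IV chains build the sheets of basement membranes, and fibril-associated chains decorate the surface of fibrils. In the eye, types II, IX and XI with V form the fibrils of the vitreous, type IV lines the inner limiting membrane, Bruch's membrane and vessels, and type XVIII is needed for vitreous and retinal vessel development. Fibroblasts are the classic producers of types I, III, V and VI, whereas rods are neurons and not known as a major source of matrix.

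Values are the authors' normalized CPM, read numbers scaled by library size, but their column sums were not equal. The smallest sum, 719752, belonged to a library of P2 rods, and the largest, 2277242, to one of P28 rods. These extremes lie at opposite ends of the rod age range, so changes over rod age depend on the scaling. The rod age slope is also given under quantile and median-of-ratios scaling. Depth is unknown, since the counts behind the values are not held here. Rod marker sums (9 genes, among them Nrl, Crx and Gnat1) had medians of 4.02 CPM in MEF, 3.97 at day 5 and 5.28 at day 8. The medians were 335 in CiPC, 6465 in P5 rods and 154349 in P28 rods. In CiPC the rod markers Nrl and Crx had means of 30.7 and 93.0 CPM (n = 3), so they were detected but below the 896 and 1663 CPM of P5 rods. A fibroblast list of 10 genes without collagens had medians of 12490.4, 13139 and 13432 CPM in MEF, at day 5 and at day 8, of 611 in CiPC and of 23.0 in P5 rods. A list of 8 Müller glia genes, among them Vim, stood at 2847 in MEF, 1417 at day 5 and 1568 at day 8. It stood at 5032 in CiPC and 205 in P5 rods, so a high sum of this list was not particular to CiPC. In bulk samples, fewer cells of a type and less RNA per cell cannot be told apart. P5 rods and the cultured cells come from the newer series, whereas rods of the other ages were taken over from an older one. P10 replicate 4 and P14 replicate 3 stand apart from their groups, and the results over rod age are given with and without them.

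The collagen genes together made up a median of 2.22% of the summed CPM of MEF libraries, 5.96% at day 5 and 5.91% at day 8. The share was 0.369% in CiPC, where the 3 libraries ran from 0.322% to 0.409%. Rods lay lower still, at medians of 0.0675% in P2, 0.0332% in P5 and 0.00669% in P28. The 4 culture groups did not overlap with any rod group, while the ranges at days 5 and 8 overlapped. Of the 44 genes, 10 had their highest group mean in MEF, 14 at day 5, 9 on day 8 and 4 in CiPC (Col4a5, Col4a6, Col9a1 and Col9a3). The other 7 peaked in rods: Col2a1 in P2, Col17a1 in P4, Col11a2 and Col20a1 in P5, and Col4a3, Col4a4 and Col19a1 in P28.

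The mix of classes changed as well. Fibrillar chains gave a median of 63.6% of collagen CPM in MEF, 76.0% at day 5, 77.4% on day 8 and 12.8% in CiPC. Basement membrane chains gave 24.4%, 5.39%, 5.19% and 40.3% in the same order. Fibril-associated chains gave 17.6% in CiPC against 0.728% at day 8. Whether the values scale with transcript length is not given in the sources used here, so these shares are read across groups and not as numbers of molecules.

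**Figure D1:**
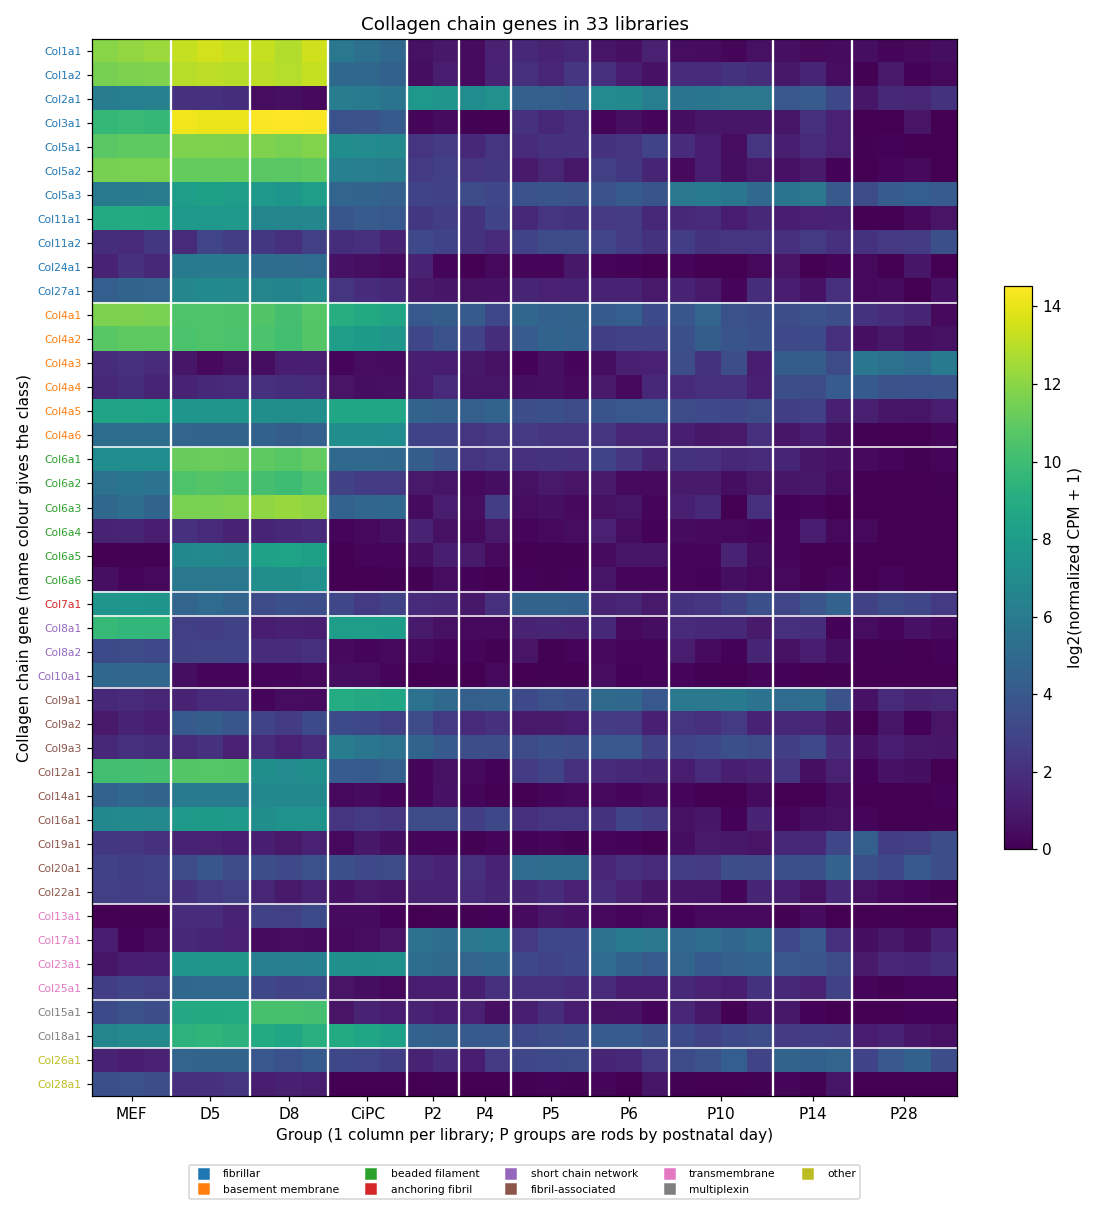
Levels of all 44 collagen chain genes (rows, by class) in 33 libraries (columns, by group), as log2(normalized CPM + 1). Highest means lie at day 5 or 8 for 7 of 11 fibrillar and all 6 beaded filament chains, while Col9a1, Col4a5 and Col4a6 are brightest in CiPC, and Col2a1 and Col17a1 in young rods.

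Day 5 cells were compared with MEF to ask how collagen expression stood early in the treatment. A linear model (limma) was fitted to log2(CPM + 1) over all genes, and a gene was called where its adjusted p was below 0.05 and it differed at least 2-fold. At day 5, 20 of 44 collagen genes were higher and 8 were lower than in MEF, while 16 were not called. Among all 14798 genes tested, 13.6% were called higher and 12.6% lower, against 45.5% and 18.2% of the collagens. The median change of the collagen genes was 0.75 on the log2 scale, against 0.02 for all genes tested. Between day 5 and day 8, 4 collagen genes rose and 11 fell, with a background of 3.24% higher, 2.71% lower and 5.95% in either direction.

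CiPC were compared with day 8 and with MEF to ask how the reprogrammed cells differed from the intermediates and from the starting cells. From day 8 to CiPC, 26 of 44 collagen genes fell and 7 rose, with a background of 15.6% lower, 14.3% higher and 29.9% in either direction. Against MEF, 27 were lower and 7 higher in CiPC, with a background of 16% lower and 15.4% higher. The median change was -1.65 from day 8 and -1.61 from MEF on the log2 scale, against -0.03 for all genes in both. The 2 comparisons share the CiPC libraries and are therefore not independent.

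Of the 11 fibrillar chains, 6 rose and 2 fell by day 5, and 9 fell and 1 rose from day 8 to CiPC. Col3a1, the chain of the type III fibrils of soft tissue (chr1:45311538-45349706, plus strand, GRCm38), measured 823, 878 and 813 CPM in MEF, 19150.0, 17715 and 17913 at day 5, 21929.6, 23651 and 22511 on day 8, then 11.9, 12.3 and 16.5 in CiPC. No library of one group overlapped another, and day 8 was the highest. The rise by day 5 was 4.44 ± 0.10 (SE) on the log2 scale (adjusted p = 3.39e-15). From day 8 to CiPC Col3a1 fell by 10.62 ± 0.10 (adjusted p = 1.05e-19), which was the largest called fall among the collagens in that comparison.

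The type I chains began higher in MEF and rose less. Col1a1, which supplies most chains of the type I fibril (chr11:94936224-94953042, plus strand), measured 3894, 4608 and 5132 CPM in MEF, 9925, 11713 and 9957 at day 5, 9806, 7409 and 11525 on day 8, then 55.2, 40.3 and 28.1 in CiPC. Col1a2, its partner chain, measured 2995, 3272 and 3362 CPM in MEF, 8123, 8728 and 8045 at day 5, 8828, 7840.4 and 9617 on day 8, then 28.6, 28.2 and 21.6 in CiPC. For both, days 5 and 8 overlapped and lay above MEF, and CiPC lay far below. The rise by day 5 was 1.22 ± 0.19 for Col1a1 (adjusted p = 3.28e-05) and 1.37 ± 0.14 for Col1a2 (adjusted p = 3.1e-07). Under quantile normalization these rises were 0.75 and 0.86, under the fold threshold. CiPC were lower than MEF in Col1a1 (log2 change -6.79 ± 0.19, adjusted p = 2.63e-14) and in Col1a2 (log2 change -6.90 ± 0.14, adjusted p = 6.52e-16), which had the largest fall of the collagens in that comparison.

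Type V chains seed fibrils of type I, and 1 of the 3 was called by day 5. Col5a1 measured 1828, 1919 and 1931 CPM in MEF, 3312, 3329 and 3259 at day 5, 3353, 3082 and 3523 on day 8, then 139, 126 and 115 in CiPC. Col5a2 measured 3029, 3165 and 3082 CPM in MEF, 2157, 2181 and 2148 at day 5, 1790.1, 1782 and 1940.2 on day 8, then 78.8, 73.5 and 67.4 in CiPC. Their log2 changes by day 5 were 0.80 and -0.52, neither past the fold threshold. Col5a3 measured 56.9, 64.2 and 71.7 CPM in MEF, 270.2, 304 and 266 at day 5, 235, 198 and 268 on day 8, then 25.5, 24.8 and 20.9 in CiPC. It rose by 2.11 ± 0.11 by day 5 (adjusted p = 4.69e-11) and fell by 3.24 ± 0.11 from day 8 to CiPC (adjusted p = 1.29e-13). The other two fell as well from day 8 to CiPC, by 4.70 ± 0.08 for Col5a1 (adjusted p = 2.36e-17) and by 4.63 ± 0.11 for Col5a2 (adjusted p = 1.46e-15).

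The fibrillar chains of cartilage and vitreous took other courses. Col11a1, the nucleating chain of type XI, measured 466, 465 and 449 CPM in MEF, 219, 211 and 221 at day 5, 99.4, 98.4 and 107 on day 8, then 13.8, 17.2 and 15.3 in CiPC. It stepped down between each pair of groups, with no overlap and a call at each step (log2 changes -1.08, -1.09 and -2.65). Under quantile normalization the first step was -0.71 and no longer called. Col2a1, the chain of type II fibrils (chr15:97975602-98004695, minus strand), measured 66.7, 76.9 and 82.3 CPM in MEF, 3.28, 3.27 and 2.78 at day 5, 0.394, 0.513 and 0.317 on day 8, then 68.6, 59.4 and 47.4 in CiPC. It fell by 4.21 ± 0.13 by day 5 (adjusted p = 6.16e-14) and was the 1 fibrillar chain that rose from day 8 to CiPC, by 5.39 ± 0.13 (adjusted p = 1.52e-15). CiPC and MEF overlapped and were not called apart (log2 change -0.37, adjusted p = 0.0137).

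**Figure D2:**
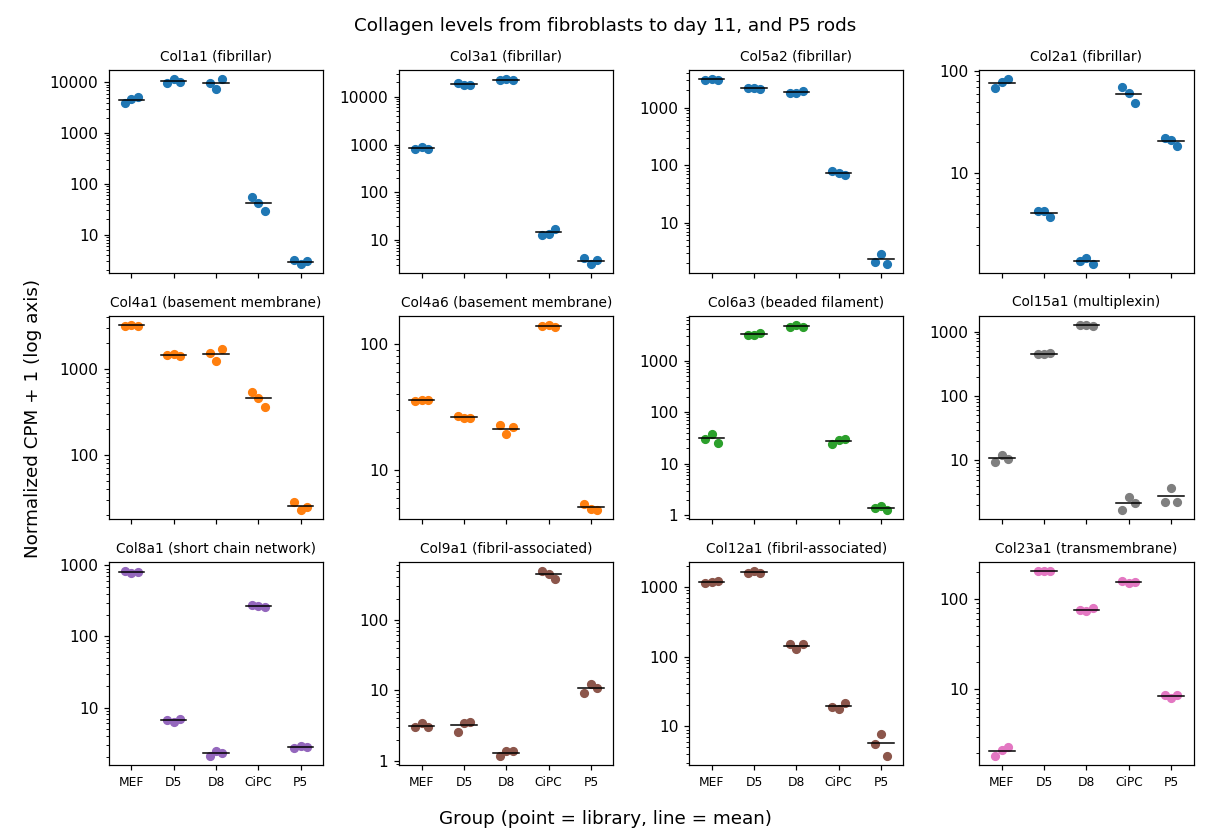
Normalized CPM + 1 (log axis) of 12 collagen chain genes in MEF, at days 5 and 8, in CiPC and in P5 rods, with points for libraries and lines for means. Col3a1, Col6a3 and Col15a1 peak at day 8, whereas Col2a1, Col8a1 and Col9a1 are lowest there and return or rise in CiPC.

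Beaded filament chains form type VI collagen, the microfibrils around fibroblasts and muscle. Of 6 chains, 5 rose by day 5, and all 6 fell from day 8 to CiPC. Col6a3 measured 29.3, 36.2 and 24.4 CPM in MEF, 3176, 3176 and 3382 at day 5, 4462, 4925 and 4478 on day 8, then 22.7, 27.3 and 29.4 in CiPC. It rose by 6.73 ± 0.12 (adjusted p = 1.01e-16) and fell by 7.40 ± 0.12 (adjusted p = 1.47e-17), after which CiPC and MEF overlapped (log2 change -0.16, not called). Col6a1 measured 132, 131 and 134 CPM in MEF, 2288, 2381 and 2305 at day 5, 1949, 1762 and 2080.2 on day 8, then 29.7, 29.8 and 27.4 in CiPC. Col6a2 measured 41.1, 49.4 and 45.9 CPM in MEF, 1481, 1604 and 1482 at day 5, 1227, 1030.5 and 1372 on day 8, then 5.92, 4.89 and 4.5 in CiPC. Unlike Col6a3, these 2 chains ended below MEF, with log2 changes of -2.16 ± 0.06 for Col6a1 (adjusted p = 1.59e-14) and -2.93 ± 0.11 for Col6a2 (adjusted p = 1.02e-12).

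Col6a5 and Col6a6, alternatives to the Col6a3 chain, appeared in the treated cells. Col6a5 measured 0, 0.0672 and 0.0723 CPM in MEF, 108, 116 and 107 at day 5, 315, 349.5 and 302 on day 8, then 0.032, 0.143 and 0.174 in CiPC. Its rise of 6.73 ± 0.08 by day 5 (adjusted p = 3.51e-18) understates the change of a gene near 0. Col6a6 measured 0.538, 0.200 and 0.259 CPM in MEF, 55.0, 52.6 and 55.1 at day 5, 147, 149.5 and 159.9 on day 8, then at most 0.0688 in CiPC. Both rose again between day 5 and day 8, by 1.54 ± 0.08 for Col6a5 (adjusted p = 9.87e-10) and 1.47 ± 0.09 for Col6a6 (adjusted p = 5.52e-09).

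Of the 10 fibroblast genes without collagens, 9 had a higher median at day 5 than in MEF, while the sum of the list stayed near its MEF level. Fn1, the gene of fibronectin and the exception, had medians of 11535 CPM in MEF, 1799 at day 5, 2191 on day 8 and 543 in CiPC. Dcn, a proteoglycan that binds collagen fibrils, had medians of 74.0 CPM in MEF, 4743 at day 5, 5413 on day 8 and 10.4 in CiPC. The adipocyte list of 6 genes had medians of 29.1, 1449, 5111 and 24.9 CPM in the same groups. The macrophage list stood at 207 CPM in MEF and 10.8 at day 5. The part of other cell types in the collagen changes was not tested.

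Basement membrane chains lie in 3 pairs of genes that face each other on a chromosome, each pair reading outward from a shared region. Col4a1 and Col4a2 start 21 bases apart on chromosome 8 and overlap at their first bases, Col4a3 and Col4a4 start 72 bases apart on chromosome 1, and Col4a5 and Col4a6 start 1309 bases apart on chromosome X (GENCODE M21, GRCm38). The 300-base windows below, 250 bases before to 50 after each start (RefSeq, GRCm38.p6), are shown because the Col4a1 and Col4a2 pair fell together while the Col4a5 and Col4a6 pair rose. The windows are Col4a1 at chr8:11312777-11313076 (minus strand), Col4a2 at chr8:11312555-11312854 (plus strand), Col4a5 at chrX:141475169-141475468 (plus strand) and Col4a6 at chrX:141474027-141474326 (minus strand), each printed 5′ to 3′ on its own strand with CCAAT, or its reverse complement ATTGG, in capitals.
Col4a1: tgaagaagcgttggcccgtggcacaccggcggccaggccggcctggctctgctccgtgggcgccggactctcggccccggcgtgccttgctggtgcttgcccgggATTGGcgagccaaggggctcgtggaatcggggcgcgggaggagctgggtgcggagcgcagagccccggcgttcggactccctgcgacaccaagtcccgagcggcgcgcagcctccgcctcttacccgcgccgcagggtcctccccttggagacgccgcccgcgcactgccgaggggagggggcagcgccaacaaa
Col4a2: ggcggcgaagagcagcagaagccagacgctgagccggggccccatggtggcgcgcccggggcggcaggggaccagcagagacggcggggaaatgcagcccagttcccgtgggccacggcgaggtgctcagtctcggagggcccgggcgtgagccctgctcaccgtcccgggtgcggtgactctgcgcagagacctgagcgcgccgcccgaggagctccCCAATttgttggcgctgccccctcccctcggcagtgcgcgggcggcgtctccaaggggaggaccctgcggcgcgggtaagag
Col4a5: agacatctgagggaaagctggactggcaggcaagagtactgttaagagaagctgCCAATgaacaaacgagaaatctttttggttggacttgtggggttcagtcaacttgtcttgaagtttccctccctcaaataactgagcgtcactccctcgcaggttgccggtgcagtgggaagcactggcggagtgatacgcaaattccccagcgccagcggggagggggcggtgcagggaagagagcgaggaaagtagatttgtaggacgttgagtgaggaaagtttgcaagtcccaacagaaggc
Col4a6: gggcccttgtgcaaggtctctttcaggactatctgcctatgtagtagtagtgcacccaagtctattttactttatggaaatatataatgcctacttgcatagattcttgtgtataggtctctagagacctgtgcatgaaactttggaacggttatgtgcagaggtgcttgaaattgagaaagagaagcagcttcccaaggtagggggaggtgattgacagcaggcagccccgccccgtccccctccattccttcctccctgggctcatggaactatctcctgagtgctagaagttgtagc

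Windows were found for 35 of the 44 genes, 38 windows in all. Not matched were Col1a1, Col2a1, Col4a3, Col5a2, Col9a3, Col12a1, Col14a1, Col22a1 and Col26a1. The Col4a1 and Col4a2 windows share 78 bases. CCAAT on either strand was in 34.2% of the collagen windows and in 37.4% of all 32851 windows. GGGCGG, the letters of a GC box, on either strand was in 60.5% of the collagen windows against 35.7% of all, and TATAAA on either strand was in 13.2% against 13.6%. Some windows of the collagens overlap one another, and these shares are descriptions without a test.

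The windows of Col1a2 at chr6:4505368-4505667 (plus strand), which fell most from MEF to CiPC, and Col3a1 at chr1:45311288-45311587 (plus strand), which fell most from day 8, are shown for contrast with the same marking. The Col1a2 window holds CCAAT or its reverse complement at 2 places and GGGCGG at 2, and the Col3a1 window holds neither but has TATAAA at 1 place.
Col1a2: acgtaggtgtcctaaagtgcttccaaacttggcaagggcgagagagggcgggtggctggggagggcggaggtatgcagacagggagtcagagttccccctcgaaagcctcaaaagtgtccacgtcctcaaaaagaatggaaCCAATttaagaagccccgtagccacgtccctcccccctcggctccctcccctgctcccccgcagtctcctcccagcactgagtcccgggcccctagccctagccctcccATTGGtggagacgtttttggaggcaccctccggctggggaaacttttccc
Col3a1: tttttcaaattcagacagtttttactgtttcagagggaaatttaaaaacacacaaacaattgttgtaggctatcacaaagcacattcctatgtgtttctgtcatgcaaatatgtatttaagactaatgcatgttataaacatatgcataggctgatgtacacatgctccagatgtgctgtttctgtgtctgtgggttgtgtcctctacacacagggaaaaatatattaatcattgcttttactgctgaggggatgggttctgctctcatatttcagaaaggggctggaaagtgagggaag

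Of the 6 type IV chains, 2 fell and none rose by day 5, none was called between days 5 and 8 (limma, with the same thresholds), and 3 fell and 2 rose from day 8 to CiPC. Col4a1, with Col4a2 the chain of nearly all basement membranes, measured 3193, 3254 and 3178 CPM in MEF, 1453, 1485 and 1429 at day 5, 1537, 1236 and 1679 on day 8, then 537, 461 and 361 in CiPC. Col4a2 measured 1709.6, 1909 and 1944 CPM in MEF, 1364, 1459 and 1351 at day 5, 1390.0, 1127 and 1585 on day 8, then 278, 239 and 199 in CiPC. For both genes MEF were highest, days 5 and 8 overlapped and CiPC were lowest. They fell from day 8 to CiPC by 1.72 ± 0.12 for Col4a1 (adjusted p = 2.69e-09) and 2.51 ± 0.14 for Col4a2 (adjusted p = 1.31e-10).

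The X-linked pair went the other way. Col4a5 measured 352, 363 and 342 CPM in MEF, 201, 191 and 190.2 at day 5, 146, 143 and 142 on day 8, then 381, 385 and 373 in CiPC. Col4a6, which pairs with Col4a5 in smooth muscle and epithelial basement membranes, measured 34.5, 34.7 and 34.6 CPM in MEF, 26.0, 25.0 and 24.8 at day 5, 21.6, 18.3 and 20.9 on day 8, then 139, 141 and 135 in CiPC. In both, CiPC libraries were above all other libraries of the series. From day 8 Col4a5 rose by 1.39 ± 0.05 (adjusted p = 1.91e-13) and Col4a6 by 2.71 ± 0.07 (adjusted p = 3.26e-15). Against MEF, Col4a6 was higher by 1.97 ± 0.07 (adjusted p = 2.49e-13), whereas Col4a5 was not called (log2 change 0.11). Col4a3 and Col4a4, the partners of Col4a5 in the kidney filter, had means under 3 CPM in the 4 culture groups.

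Of the 3 short chain genes 2 fell by day 5, and the anchoring chain fell too. All 4 were lower in CiPC than in MEF. Col8a1, a chain of the hexagonal network under the corneal endothelium (chr16:57624258-57754737, minus strand), measured 839, 788 and 795 CPM in MEF, 5.65, 5.21 and 5.94 at day 5, 1.11, 1.42 and 1.29 on day 8, then 275, 266 and 261 in CiPC. Its log2 change of -6.94 ± 0.07 by day 5 was the largest fall of the collagens (adjusted p = 2.91e-19), and the rise from day 8 was 6.88 ± 0.07 (adjusted p = 1.06e-19). CiPC remained below MEF, with a log2 change of -1.59 ± 0.07 (adjusted p = 4.1e-12). Col10a1, the chain of hypertrophic cartilage, measured 28.7, 26.8 and 27.2 CPM in MEF and at most 0.470 CPM in any library of the 3 later culture groups, a log2 change of -4.51 ± 0.10 by day 5 (adjusted p = 2.4e-15). Col10a1 passed the filter only through the 3 MEF libraries, so it had to differ, and without any 1 of them it was not tested. Col8a2, the partner of Col8a1, measured 8.44, 9.11 and 8.38 CPM in MEF and 6.18, 6.90 and 6.61 at day 5, which was not called (log2 change -0.35), and at most 0.311 in CiPC. Col7a1, the chain of the fibrils that anchor epidermis to dermis, measured 193, 196 and 184 CPM in MEF, 25.8, 33.3 and 25.8 at day 5, 9.37, 10.6 and 10.4 on day 8, then 7.55, 4.49 and 6.08 in CiPC. It fell by 2.72 ± 0.13 by day 5 (adjusted p = 2.3e-11) and was lower in CiPC than in MEF by a log2 change of -4.79 ± 0.13 (adjusted p = 1.57e-14).

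Of the 9 fibril-associated chains, 3 rose by day 5, 4 fell between days 5 and 8, and 2 rose and 3 fell from day 8 to CiPC. With a pseudocount of 5, the falls of Col9a1, Col9a2 and Col22a1 between days 5 and 8 were no longer called (log2 changes -0.44, -0.88 and -0.52). Col9a1, which with Col9a2 and Col9a3 coats type II fibrils in cartilage and vitreous (chr1:24177610-24252684, plus strand), measured 2.05, 2.39 and 1.97 CPM in MEF, 1.59, 2.40 and 2.58 at day 5, 0.185, 0.376 and 0.362 on day 8, then 497, 444 and 382 in CiPC. It had the largest rise of the collagens into CiPC, 8.40 ± 0.14 from day 8 (adjusted p = 2.49e-17) and 7.13 ± 0.14 from MEF (adjusted p = 3.29e-16). Col9a3 measured 2.15, 2.82 and 2.71 CPM in MEF, 2.46, 1.54 and 2.47 on day 8, then 67.4, 50.4 and 41.7 in CiPC, a rise of 4.09 ± 0.19 from day 8 (adjusted p = 1.08e-11). Col9a2, the third chain of the same trimer, was not called from day 8 to CiPC, with 6.62, 5.08 and 8.46 CPM on day 8 and 8.68, 7.96 and 5.86 in CiPC. It was higher in CiPC than in MEF by 1.89 ± 0.17 (adjusted p = 3.64e-08), a call lost with a pseudocount of 5 (log2 change 0.99).

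Of the cartilage markers outside the collagens, Sox9 had a median of 16.8 CPM in CiPC and 3.46 at day 8, while Acan, the cartilage proteoglycan, stood at 0.213 in CiPC. The Müller glia genes Rlbp1 and Slc1a3 had medians of 258 and 939 CPM in CiPC against 0 and 85.5 at day 8, whereas Aqp4 was at 0.343 in CiPC. The part of such cells in the rise of types II and IX was not tested.

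Col12a1 and Col14a1 bind the surface of type I fibrils. Col12a1 measured 1129.8, 1181 and 1212 CPM in MEF, 1579, 1692 and 1578 at day 5, 151, 126 and 148 on day 8, then 17.7, 16.7 and 20.7 in CiPC. Its log2 change of -3.50 ± 0.17 between days 5 and 8 was the largest fall of the collagens at that step (adjusted p = 2.45e-10). Col14a1 measured 22.8, 28.2 and 24.8 CPM in MEF, 60.1, 62.1 and 59.2 at day 5, 108, 109.7 and 109 on day 8, then 0.242, 0.362 and 0.153 in CiPC. The 2 genes parted at day 8, when Col12a1 fell while Col14a1 was at its highest, and both were lowest in CiPC among the culture groups. The change of Col14a1 into CiPC was -6.46 ± 0.10 from day 8 (adjusted p = 1.99e-17).

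The 2 multiplexins, long chains found beside basement membranes, both rose by day 5. Col15a1 measured 8.47, 11.0 and 9.62 CPM in MEF, 444, 447 and 469.6 at day 5, 1269, 1251 and 1196 on day 8, then 0.719, 1.69 and 1.19 in CiPC. It rose by 5.41 ± 0.17 (adjusted p = 1.46e-13) and then by 1.45 ± 0.17 (adjusted p = 5.62e-06), and fell by 9.16 ± 0.17 into CiPC (adjusted p = 1.15e-16). Col18a1, the precursor of endostatin, measured 95.7, 111 and 112 CPM in MEF, 679, 735 and 649.5 at day 5, 475, 372 and 547 on day 8, then 475, 384 and 293 in CiPC. Day 8 and CiPC overlapped and were not called apart (log2 change -0.28), so CiPC kept a level above MEF by 1.82 ± 0.15 (adjusted p = 2.29e-08).

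Of the 4 transmembrane chains, which sit in the cell membrane and can be shed, 3 rose by day 5. Col23a1 measured 0.855, 1.12 and 1.30 CPM in MEF, 201, 205 and 202 at day 5, 74.4, 72.4 and 79.6 on day 8, then 159, 151 and 154 in CiPC. The groups did not overlap, and CiPC were higher than MEF by 6.22 ± 0.07 (adjusted p = 1.54e-18) and than day 8 by 1.03 ± 0.07 (adjusted p = 2.58e-09). The second difference lay at the fold threshold, and its call was lost with a pseudocount of 5 (log2 change 0.99) and without D8 replicate 2 (log2 change 0.996). Col25a1, a neuronal chain found in amyloid plaques in the human brain, measured 5.40, 7.0 and 5.63 CPM in MEF, 28.4, 29.8 and 29.8 at day 5, 7.73, 6.83 and 7.22 on day 8, then 0.669, 0.473 and 0.260 in CiPC. It rose by 2.12 ± 0.12 (adjusted p = 1.35e-10), fell by 1.88 ± 0.12 (adjusted p = 3.91e-09) and fell again by 2.50 ± 0.12 (adjusted p = 1.15e-11). Col13a1, a chain of the neuromuscular junction, stayed under 9 CPM and rose at both early steps, by 1.64 ± 0.15 (adjusted p = 6.08e-08) and 1.27 ± 0.15 (adjusted p = 4.79e-06). With a pseudocount of 5 these rises were 0.52 and 0.70, and neither was called. Of the 2 remaining genes, Col26a1 rose and Col28a1 fell by day 5 (not called with a pseudocount of 5, log2 change -0.93), and Col28a1 was listed at 0 in the 3 CiPC libraries.

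The ratio of 2 chains within a library cancels the scaling of that library, but not library differences that affect the 2 chains unequally. The CPM ratio of Col3a1 over Col1a1 had a median of 0.191 in MEF, 1.80 at day 5 and 2.24 on day 8. In CiPC its median was 0.305, and the libraries ran from 0.215 to 0.588. Col6a3 over Col6a1 went from 0.222 in MEF to 2.29 on day 8 and 0.918 in CiPC. Col4a5 over Col4a6 fell from 10.2 in MEF to 2.74 in CiPC, where the libraries ran from 2.73 to 2.77. Col1a1 over Col1a2 moved little, with medians between 1.11 and 1.43 over the 4 culture groups, and CiPC and MEF overlapped. Col4a1 over Col4a2 was 1.70 in MEF, 1.06 at day 5, 1.10 on day 8 and 1.92 in CiPC. The size of a ratio depends on how the values scale with transcript length, and its course across groups does not.

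**Figure D3:**
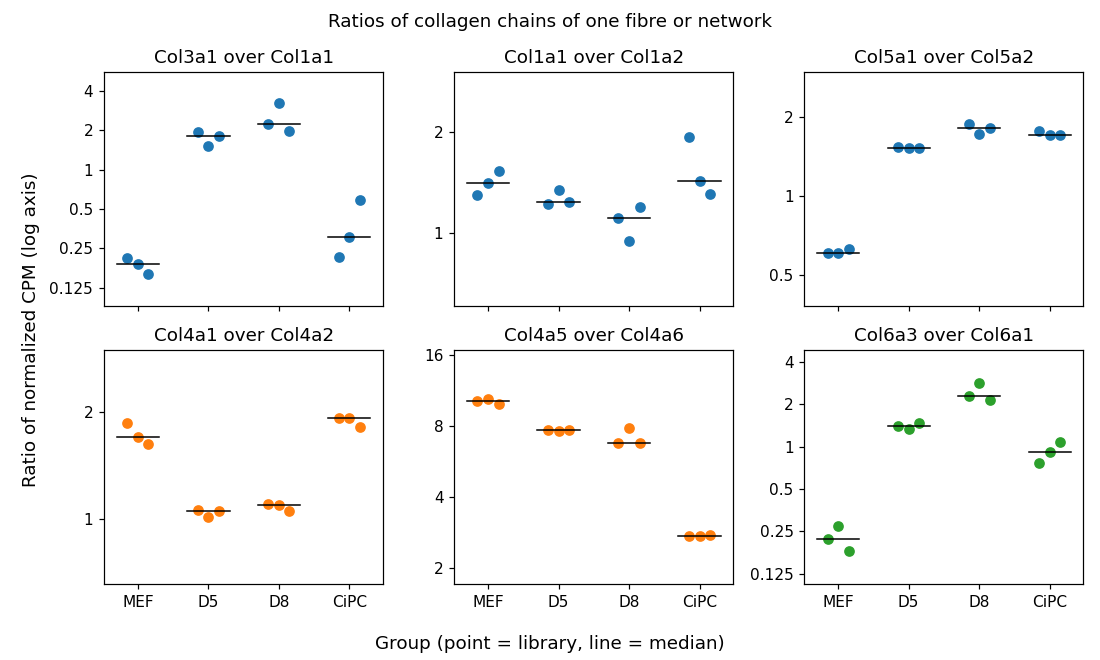
Ratios of normalized CPM (log axis) for 6 pairs of collagen chains in MEF, at days 5 and 8 and in CiPC, with points for libraries and lines for medians. Col3a1 over Col1a1 and Col6a3 over Col6a1 peak at day 8, and Col4a5 over Col4a6 is lowest in CiPC at 2.74.

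CiPC were compared with P5 rods to ask how near the collagen levels of the reprogrammed cells came to those of native rods. Of 44 collagen genes, 21 were higher and 5 were lower in CiPC, with a background of 22.8% higher and 16.9% lower, so the share higher was 47.7% and the share lower 11.4%. The median change was 0.70 for the collagens and 0 for all genes. Quantile normalization shifted the median change of all genes by -0.20 and moved the share of calls that were higher from 57.4% to 46.2%. Of all genes 2863 were then higher and 3328 lower, while 21 collagen genes stayed higher and 6 were lower. The fibroblast list was also higher in CiPC, with sums of 584 to 620 CPM against 22.6 to 24.8 in P5 rods, and the Müller glia list from 4911 to 5282 against 203 to 224. Their part in the result was not tested.

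Of the 11 fibrillar chains 7 were higher in CiPC, of the 6 type IV chains 4, and of the 6 type VI chains 3. Col1a1 measured 2.13, 1.68 and 2.03 CPM in P5 rods, far below the 28.1 to 55.2 of CiPC (log2 change 3.79 ± 0.19, adjusted p = 2.76e-11). Col5a2 measured 1.08, 1.91 and 0.935 CPM in P5 rods (log2 change 5.03 ± 0.11, adjusted p = 4.99e-16). Col3a1 measured 3.24, 2.24 and 2.85 CPM in P5 rods (log2 change 1.94 ± 0.10, adjusted p = 5.22e-11). In all 3, CiPC lay above rods and below MEF.

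The 4 largest rises against P5 rods were those of Col8a1, Col9a1, Col18a1 and Col4a5. Col8a1 measured 1.67, 1.87 and 1.75 CPM in P5 rods, against 261 to 275 in CiPC (log2 change 6.60 ± 0.07, adjusted p = 1.23e-19). Col9a1 measured 8.28, 11.2 and 9.61 CPM in P5 rods, against 382 to 497 (log2 change 5.37 ± 0.14, adjusted p = 5.12e-15). Col18a1 measured 8.21, 9.65 and 10.6 CPM in P5 rods (log2 change 5.18 ± 0.15, adjusted p = 3.15e-14). Col4a5 measured 10.2, 10.8 and 9.43 CPM in P5 rods (log2 change 5.10 ± 0.05, adjusted p = 5.02e-20). Col9a1 in CiPC was thus called higher than in MEF, at day 8 and in P5 rods. Col6a3 (4.29 ± 0.12, adjusted p = 9.15e-15), Col4a1 (4.15 ± 0.12, adjusted p = 2.83e-14) and Col11a1 (2.01 ± 0.11, adjusted p = 7.47e-11) were higher in CiPC as well, whereas Col14a1 and Col15a1 were not called.

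The 5 genes lower in CiPC were Col17a1, Col20a1, Col7a1, Col11a2 and Col25a1. Col17a1, the transmembrane chain of hemidesmosomes, measured 4.30, 7.89 and 7.38 CPM in P5 rods and 0.275, 0.394 and 0.72 in CiPC (log2 change -2.34 ± 0.23, adjusted p = 1.22e-07). Col20a1, a fibril-associated chain, measured 32.5, 35.7 and 35.2 CPM in P5 rods and 10.7, 8.06 and 8.90 in CiPC (log2 change -1.80 ± 0.15, adjusted p = 1.23e-08). Col7a1 measured 23.6, 23.3 and 21.5 CPM in P5 rods (log2 change -1.78 ± 0.13, adjusted p = 2.77e-09). None of these groups overlapped. With a pseudocount of 5, Col11a2 and Col25a1 were no longer called (log2 changes -0.83 and -0.48).

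Some of these values depend on which rods are used. In a comparison chosen after the data were seen, with P4 and P6 rods of the older series in place of P5, Col2a1 was lower in CiPC (log2 change -1.09) where it had been higher against P5 (log2 change 1.51). Col20a1 and Col7a1 turned from lower to higher, at 1.59 and 1.41. Only 2 collagen genes were then lower in CiPC, and Col11a2 and Col25a1 were no longer called. Counts over all genes were not kept for this comparison. Of the 26 genes called against P5, 21 kept their call and direction. The means of Col2a1 were 149, 19.7 and 107 CPM in P4, P5 and P6 rods, those of Col17a1 57.7, 6.52 and 52.3, those of Col20a1 2.39, 34.5 and 2.47, and those of Col7a1 1.89, 22.8 and 1.54. P5 rods stood apart from their neighbours in age, and marker lists of several cell types did too. In the order P4, P5 and P6, medians were 963, 205 and 772 CPM for Müller glia and 84.3, 23.0 and 70.0 for fibroblast genes. They were 296, 52.0 and 190 for endothelium and pericyte, and 50.3, 8.51 and 37.0 for cartilage. The pigment and ciliary epithelium list was higher in P5, at 6.40, 74.6 and 15.5. The rod list, at 5628, 6465 and 9070, and the macrophage list lay between their neighbours. Series and the difference of P5 from its neighbours cannot be told apart.

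**Figure D4:**
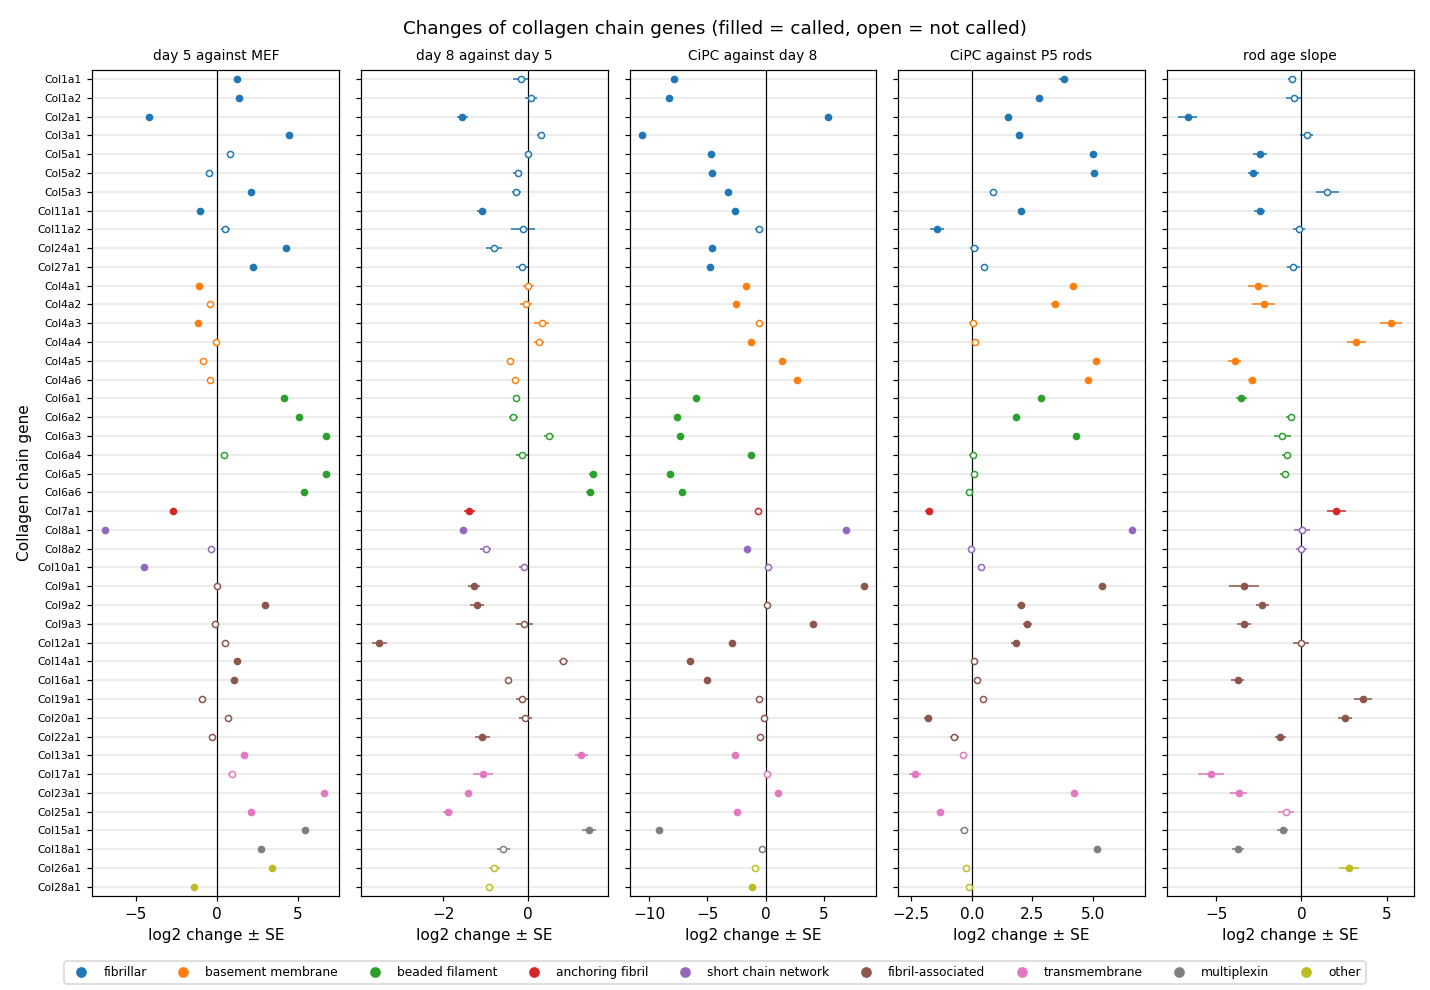
log2 changes ± SE of 44 collagen chain genes (rows, by class) in 5 comparisons, on the log2(CPM + 1) scale and with filled points for called genes. All 6 beaded filament chains fall from day 8 to CiPC, whereas Col4a5, Col4a6, Col9a1 and Col8a1 rise. The axes of the panels differ in range.

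Collagen levels in native rods were followed over age in the older series, as the change over the whole range from P2 to P28 of a slope on log2 postnatal day. Of 44 genes 38 passed the filter of at least 1 CPM in 2 libraries. Not tested were Col6a6, Col10a1, Col13a1, Col14a1, Col24a1 and Col28a1. Of those tested, 18 fell, 6 rose and 14 were not called, with a background of 32.6% lower, 21.4% higher and 54% in either direction among 13884 genes. Of the 38 tested 47.4% fell and 15.8% rose. The median change was -1.04 for the collagens tested and -0.31 for all genes. Quantile normalization shifted the median of all genes by 0.48 and the share of calls that were higher from 39.7% to 51.6%, and median-of-ratios scaling shifted the median by 0.15 and that share to 44.2%. Under quantile normalization 9 collagen genes rose and 15 fell, while 3472 of all genes rose and 3252 fell. Under median-of-ratios scaling 7 collagen genes rose and 18 fell, while 3355 of all genes rose and 4231 fell. Without P10 replicate 4 and P14 replicate 3, 6 collagen genes rose and 20 fell, and counts over all genes were not kept for this alternative.

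Col2a1 was the collagen with the largest fall over rod age. It measured 215 and 193 CPM in P2, 134 and 163 in P4, 128, 119 and 74.5 in P6, 46.3, 48.4, 52.4 and 53.8 in P10, 14.2, 17.2 and 7.99 in P14, and 0.852, 2.22, 2.01 and 3.36 in P28. Each older group lay below the one before it without overlap. The change over the range was -6.69 ± 0.56 (adjusted p = 3.08e-09). Col17a1 measured 44.1 and 35.0 CPM in P2, 55.3 and 59.9 in P4, 44.2, 59.9 and 52.6 in P6, 30.1, 35.0, 27.0 and 35.5 in P10, 8.24, 14.5 and 3.05 in P14, and 0.457, 0.887, 0.468 and 1.66 in P28. It was lowest in P28, with no overlap with the younger ages, and fell by 5.28 ± 0.77 on the log2 scale (adjusted p = 4.23e-06).

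Other chains fell by less than Col2a1, among them Col9a1, whose course was uneven. Col9a1 measured 42.3 and 30.3 CPM in P2, 19.7 and 20.6 in P4, 31.4, 28.1 and 14.2 in P6, 54.8, 54.8, 59.2 and 45.2 in P10, 32.7, 34.4 and 12.2 in P14, and 0.657, 2.34, 1.67 and 1.96 in P28. It was highest in P10 and dropped between P14 and P28, so its course was not even, and the slope gave a fall (log2 change -3.37 ± 0.90, adjusted p = 0.0025). Col11a1 fell by 2.46 ± 0.31 (adjusted p = 6.45e-07) and Col18a1 by 3.72 ± 0.34 (adjusted p = 1.01e-08). Col18a1 measured 22.7 and 20.6 CPM in P2 and 1.15, 1.59, 0.851 and 0.579 in P28. Col23a1 measured 36.4 and 31.9 CPM in P2 and 1.07, 1.95, 1.80 and 2.75 in P28 (log2 change -3.68 ± 0.50, adjusted p = 1.92e-06).

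**Figure D5:**
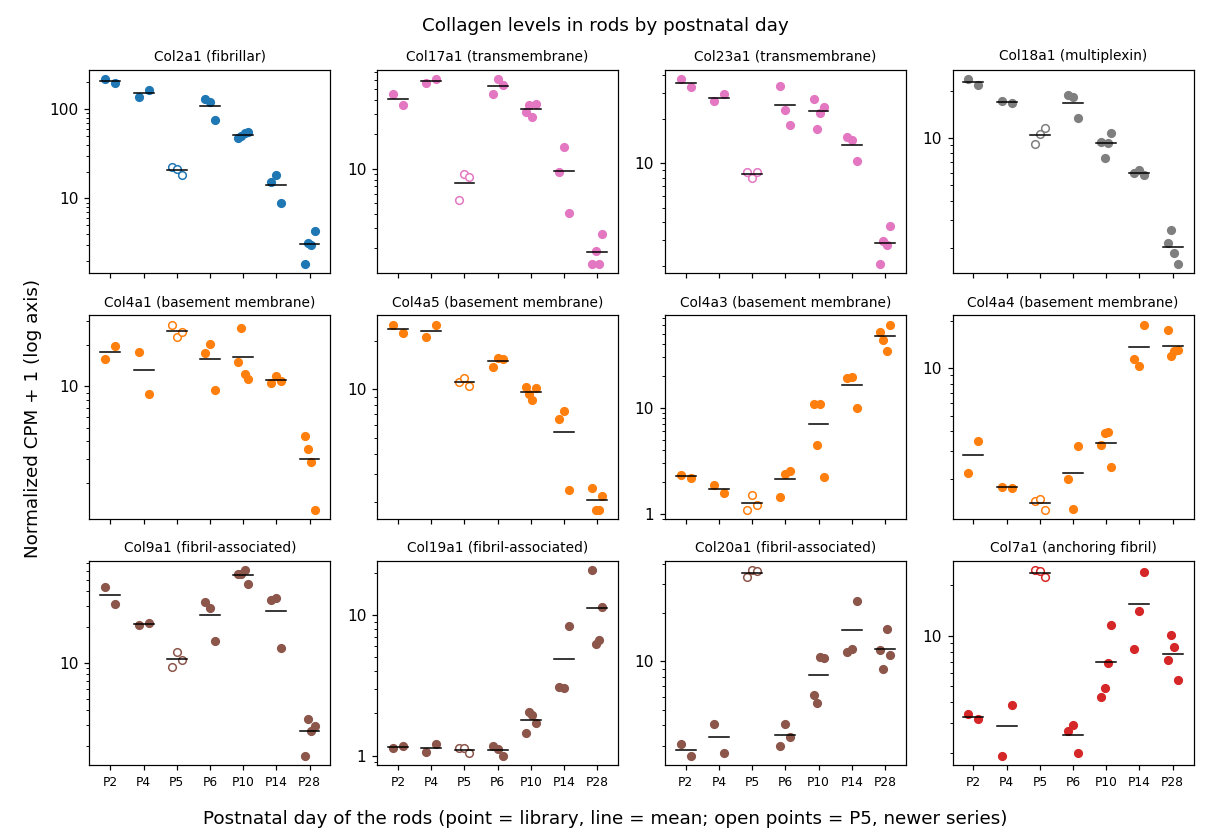
Normalized CPM + 1 (log axis) of 12 collagen chain genes in rods by postnatal day, with filled points for libraries of the older series, open points for P5 of the newer series and lines for means. Col2a1 falls from 204 CPM in P2 to 2.11 in P28, while Col4a3 and Col19a1 rise. P5 lies outside its neighbours P4 and P6 for Col2a1, Col17a1, Col20a1 and Col7a1, and also for Col23a1, Col18a1, Col4a1, Col4a5 and Col9a1.

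The type IV chains divided over rod age. Col4a3 measured 1.32 and 1.18 CPM in P2, 0.878 and 0.585 in P4, 0.441, 1.39 and 1.56 in P6, 9.94, 3.42, 9.81 and 1.21 in P10, 18.2, 18.6 and 8.95 in P14, and 51.2, 42.7, 33.2 and 59.8 in P28. Its rise of 5.27 ± 0.65 (adjusted p = 4.97e-07) was the largest of the collagens, and P28 lay above all other rod libraries. Col4a4 measured 1.19 and 2.46 CPM in P2, 0.788 and 0.755 in P4, 0.985, 0.299 and 2.25 in P6, 2.26, 2.89, 2.96 and 1.39 in P10, 10.4, 9.33 and 17.9 in P14, and 16.4, 11.0, 11.9 and 12.0 in P28 (log2 change 3.22 ± 0.57, adjusted p = 4.28e-05). For Col4a4, P14 and P28 overlapped. The other 4 type IV chains fell. Col4a5 measured 24.1 and 21.2 CPM in P2 and 1.45, 0.809, 0.801 and 1.20 in P28 (log2 change -3.93 ± 0.38, adjusted p = 1.92e-08). Col4a1 measured 14.8 and 18.6 CPM in P2 and 3.35, 2.54, 1.81 and 0.276 in P28 (log2 change -2.55 ± 0.58, adjusted p = 0.000583). Col4a2 fell by 2.22 ± 0.68 (adjusted p = 0.0067), a call that was lost under quantile normalization (log2 change -0.78, adjusted p = 0.262). Thus Col4a3 and Col4a4, which share a start region, rose together, while their partner chain Col4a5 fell.

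Col19a1, a fibril-associated chain found at synapses of the mouse brain, measured 0.129 and 0.176 CPM in P2, 0.0565 and 0.212 in P4, 0.167, 0.119 and 0 in P6, 0.453, 1.06, 0.939 and 0.698 in P10, 2.07, 2.04 and 7.41 in P14, and 19.8, 5.27, 5.68 and 10.4 in P28. P14 replicate 3 and P28 replicate 1 were the highest of their groups, and P10 to P28 lay above the younger rods. The rise was 3.61 ± 0.53 (adjusted p = 4.6e-06). Col26a1 rose by 2.80 ± 0.59 (adjusted p = 0.000292), Col20a1 by 2.57 ± 0.41 (adjusted p = 1.61e-05) and Col7a1 by 2.03 ± 0.56 (adjusted p = 0.00303). Col20a1 and Col7a1 were both highest among the older rods in P14 replicate 3, at 22.5 and 23.1 CPM. Col7a1 measured 7.33 and 13.1 CPM in the other P14 libraries and 6.13, 9.15, 7.55 and 4.43 in P28, so its course did not peak at P28. Their calls held without P10 replicate 4 and P14 replicate 3 together. With P5 rods added to the slope, Col20a1 and Col7a1 were no longer called. Among rods Col16a1, a fibril-associated chain, fell by 3.75 ± 0.37 (adjusted p = 2.74e-08), from 9.01 and 9.43 CPM in P2 to at most 0.197 in P28.

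The classic fibroblast chains were low at each rod age. Col1a1 had values between 0.153 and 2.13 CPM in the 21 rod libraries of the 7 ages, Col1a2 between 0.0522 and 3.97 and Col3a1 between 0 and 3.24. Neither these 3 nor Col12a1, Col25a1 and Col8a1 were called over rod age. Col5a1 and Col5a2 fell, by 2.43 ± 0.40 (adjusted p = 2.28e-05) and 2.82 ± 0.34 (adjusted p = 4.6e-07), and Col6a1 fell by 3.53 ± 0.32 (adjusted p = 7.16e-09). The call of Col5a1 was lost with a pseudocount of 5 (log2 change -0.92), and Col5a1 and Col15a1 were not tested with the filter at 5 CPM. Col15a1 fell by 1.11 ± 0.30 (adjusted p = 0.00265), a call that was lost under quantile normalization (log2 change -0.35), with a pseudocount of 5 (log2 change -0.31), with the replicate block (log2 change -0.97) and with a slope on postnatal day itself (log2 change -0.96). Col5a1 measured 3.74 and 4.76 CPM in P2 and at most 0.0888 in P28, and Col6a3 was listed at 0 in the 4 P28 libraries. Vtn, a secreted protein in the endothelium and pericyte list, rose from a median of 4.62 CPM in P2 to 3209 in P28, while the endothelial markers Cdh5 and Cldn5 stood at 0.123 and 0.217 in P28. The rod list rose from 3793 to 154349 CPM over the same ages, and its part in the falling shares of other genes was not tested. Median sums fell from 113 to 5.19 CPM for the fibroblast list, from 90.4 to 1.03 for cartilage and from 1001 to 353 for Müller glia. The endothelium and pericyte list, which holds Vtn, rose from 305 to 3252 CPM. The pigment and ciliary epithelium list stood at 8.77 and 9.58. The part of other cell types in the collagen changes over rod age was not tested.

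Genes that process collagen chains or bind them were counted in a list of 55 members. By day 5, 12 (21.8%) rose and 14 (25.5%) fell, with a background of 13.6% and 12.6% of all genes. Between days 5 and 8 none rose and 4 (7.27%) fell (limma, as for the collagens), with a background of 3.24% and 2.71%. From day 8 to CiPC 8 (14.5%) rose and 34 (61.8%) fell, with a background of 14.3% and 15.6%. CiPC against MEF had 4 (7.27%) higher and 36 (65.5%) lower, with a background of 15.4% and 16%. Against P5 rods 36 (65.5%) were higher in CiPC and 4 (7.27%) lower, with a background of 22.8% and 16.9%. Over rod age 11 were not tested, and of the other 44 genes 5 (11.4%) rose and 25 (56.8%) fell, with a background of 21.4% and 32.6%.

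Among the enzymes that cut procollagen or collagen, Adamts2, which removes the amino propeptide, had means of 12.6 ± 1.1 CPM (SD, n = 3) in MEF, 767 ± 15.2 at day 5, 956 ± 62.5 on day 8 and 2.93 ± 0.69 in CiPC. Mmp13, a collagenase, rose from 6.71 ± 0.71 CPM in MEF to 662 ± 16.2 at day 5 and stood at 1.06 ± 0.13 in CiPC. Tll1, a propeptidase for the other end of the chain, went against them, from 258 ± 4.7 CPM in MEF to 9.49 ± 0.28 at day 5 and 56.8 ± 4.7 in CiPC. Lox, which oxidizes lysines for crosslinking, had means of 1815 ± 70.9 CPM in MEF, 539 ± 5.4 at day 5, 214 ± 2.6 on day 8 and 10.5 ± 0.42 in CiPC. The log2 changes were 5.82 ± 0.11 for Adamts2 and 6.43 ± 0.08 for Mmp13 by day 5, and -7.30 ± 0.06 for Lox in CiPC against MEF (limma adjusted p of 2.23e-16, 2.47e-18 and 1.92e-20).

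Colgalt2, which adds galactose to hydroxylysine, rose into CiPC from 0.189 ± 0.065 CPM at day 8 to 35.1 ± 2.7, a log2 change of 4.92 ± 0.11 (adjusted p = 5.55e-16). Serpinh1, the collagen chaperone of the endoplasmic reticulum, had a mean of 616 ± 93.1 CPM in CiPC and 12.0 ± 1.8 in P5 rods (log2 change 5.56 ± 0.11, adjusted p = 3e-16). Crtap, a part of the prolyl 3-hydroxylation complex, stood at 68.7 ± 9.7 in CiPC and 1.10 ± 0.23 in P5 rods (log2 change 5.05 ± 0.09, adjusted p = 5.46e-17). Adamts3, a relative of Adamts2, was the other way round, at 4.20 ± 0.31 in CiPC and 17.2 ± 1.1 in P5 rods (log2 change -1.81 ± 0.10, adjusted p = 4.55e-11). Over rod age Serpinh1 fell from 56.1 ± 7.1 in P2 to 0.781 ± 0.24 in P28 (log2 change -5.56 ± 0.44, adjusted p = 1.42e-09), while Adamts3 rose from 7.66 ± 0.89 to 51.5 ± 12.8 (log2 change 2.95 ± 0.46, adjusted p = 9.61e-06).

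Receptors and basement membrane enzymes followed courses of their own. Itgb1, the beta chain that the collagen-binding integrins share, fell from 5145 ± 166 CPM in MEF to 677 ± 13.8 at day 5 (log2 change -2.92 ± 0.06, adjusted p = 1.63e-15). Itga11, an integrin chain for fibrillar collagen, fell from 17.8 ± 1.1 at day 5 to 6.25 ± 0.47 at day 8 (log2 change -1.37 ± 0.16, adjusted p = 3.52e-06). Mmp2, a gelatinase that also cuts type IV collagen, had means of 606 ± 7.7 in MEF, 2756 ± 58.4 on day 8 and 13.9 ± 1.4 in CiPC. Over rod age the largest falls of the list were those of Pxdn, the peroxidase that crosslinks type IV networks, from 76.5 ± 7.5 CPM in P2 to 0.258 ± 0.29 in P28 (log2 change -6.84 ± 0.57, adjusted p = 2.7e-09), and of Ddr1, a collagen receptor kinase, from 167 ± 8.4 to 4.01 ± 1.3 (log2 change -5.60 ± 0.47, adjusted p = 3.57e-09).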

How the data were processed

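The 33 libraries with values fall into 11 groups. The 3 samples of P3 rods were not analysed here. The submitters' processing notes name kallisto for the quantification of reads. Its version, the index, the genome build, the strand of the kit and the scaling between libraries are not stated in these sources. The deposited values, a CPM signal normalized by the authors, are not whole, so no count model was used, and depth and the precision it gives are unknown. No value column went unused (33 used, 0 unused). Col4a1 and Col4a2 overlap on opposite strands at their first bases only. Whether reads from that overlap can be separated depends on the strand of the kit.

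Values were analysed as log2(CPM + 1) with limma 3.58.1 in R 4.3.3, with moderated variances, a mean trend and two-sided tests. A fit over MEF, day 5, day 8, CiPC and P5 rods (15 libraries) tested genes with at least 1 CPM in at least 3 libraries. Rod age was a slope on log2 postnatal day in the 18 libraries of the older series, for genes with at least 1 CPM in at least 2, and its change is given over the whole range. The p-values were adjusted by Benjamini-Hochberg over all genes tested. Folds on this scale understate changes of low genes. The procedure was tested on simulated data in which only genes of higher level were changed. Its calls on low genes, as many collagens are in rods, were not tested. Coordinates come from GENCODE M21 (GRCm38), which matched all 44 genes by identifier, and promoter windows from RefSeq (GRCm38.p6).

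The collagen genes, the list of processing genes, the marker lists and the naming rule were chosen with earlier results of these data known. One gene of the rod marker list is not reported here, and the list was summed without it. By the rule, 19 chains are given wherever measured, with up to 4 of the largest called rises and falls per comparison among the collagens and up to 3 among the processing genes. Alternatives changed the pseudocount (0.5 and 5), the filter, the scaling (quantile or median of ratios), the variance prior, the fold threshold and the libraries used, added a replicate block, and left out each library in turn. Figures were drawn with matplotlib 3.10.9 in Python 3.11.15.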

Additional observations from a re-analysis of the deposited data

How the results depend on the processing

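Each call of a collagen gene was recomputed under each alternative. For genes outside the naming rule and for processing genes, this recomputation was chosen after seeing the data. Of these 2946 values, 2873 kept their direction and side of the threshold, 52 kept the direction but were no longer called, 3 reversed and 18 were not tested because the gene no longer passed the filter. The 3 reversals came with P4 and P6 rods in place of P5, an alternative chosen after the data were seen. There the log2 changes of CiPC against rods were -1.09 for Col2a1, 1.59 for Col20a1 and 1.41 for Col7a1, and 2 collagen genes were lower. Of 3402 such values of processing genes, 3308 kept direction and call, 83 were no longer called, 9 were not tested and 2 reversed, namely Itga10 (0.27 against P4 and P6 rods) and Fkbp14 over rod age (0.20 under quantile normalization). Counts of collagen genes otherwise moved past 1.5 times at 2 choices. With a pseudocount of 5, 5 genes fell between days 5 and 8, and 3 were lower in CiPC than in P5 rods, since that scale shrinks changes of low genes. With no fold threshold, 14 were lower at day 5 than in MEF, and 7 rose and 22 fell between days 5 and 8. For the rod age slope, quantile scaling gave 9 rises and 15 falls, and median-of-ratios scaling gave 7 and 18. Counts over all genes under an alternative are given above for scaling only.

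Leaving out each library in turn gave 19 to 21 rises and 7 to 8 falls at day 5, 4 to 4 and 10 to 12 between days 5 and 8, and 6 to 7 and 26 to 27 from day 8 to CiPC. It gave 7 to 7 and 24 to 28 in CiPC against MEF, 21 to 21 and 5 to 5 against P5 rods, and 6 to 7 and 18 to 20 over rod age.

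With the replicate number as a block, the counts of higher and lower collagen genes were 20 and 8, 4 and 11, 7 and 26, 7 and 27, 21 and 5, and 6 and 18 in the order above, as without it. The calls over rod age of Col15a1 (log2 change -0.97), Fkbp10 (log2 change -1.004) and Loxl4 (log2 change 1.29) were lost under the block, and no other call of a collagen or processing gene was. Col6a5 was newly called over rod age under the block, so the 18 falls were not all the same genes. Deviations of same-numbered libraries correlated between -0.411 and 0.089, so the numbers were not taken to pair the samples. Depth is unknown, and genes near 0 CPM limit what can be seen, above all in rods.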

Other observations

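In each of the 4 culture groups, differences of some libraries in the collagen genes went along with GC content. In CiPC, over the 20 collagen genes with a group mean of at least 10 CPM, the log2 difference of a library from the other 2 had a Pearson r with GC percent of 0.639 for replicate 1, 0.155 for replicate 2 and -0.643 for replicate 3. At day 8, over 27 genes, r was -0.0565 for replicate 1, -0.461 for replicate 2 and 0.620 for replicate 3. In MEF, over 24 genes, r was -0.570 for replicate 1, 0.0304 for replicate 2 and 0.483 for replicate 3. At day 5, over 29 genes, r was -0.185 for replicate 1, 0.447 for replicate 2 and -0.545 for replicate 3. The differences of the libraries of a group cancel out, so a positive r in 1 library comes with a negative r elsewhere in its group. Genes of 1 library share its preparation and are not independent, so these values are a description without a test. Col1a1 (58.9% GC) and Col18a1 (60.8% GC) were lowest in CiPC replicate 3, at 28.1 and 293 CPM, while Col3a1 (52.5% GC) was highest there at 16.5 CPM. Col9a1, at 52.2% GC, was also lowest in that library, at 382 CPM. For P5 rods against the mean of P4 and P6, r with GC was 0.0469 over 11 genes. The part of GC content in any comparison was not tested.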
